A study of Mus musculus with 14 samples.

Results

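The collagen genes of the superior mesenteric artery (SMA) are described here, taken as every row of the count table whose symbol has the form Col, a number, a and a number. This gave 44 of the 46095 gene symbols in the table. Of these, 38 had enough counts to be tested and 6 did not, namely Col2a1, Col9a2, Col17a1, Col24a1, Col25a1 and Col26a1. Whole SMAs were sequenced from 14 mice of the C57BL/6 strain at 8 weeks of age, 1 library per mouse. The WT mice (labelled Drp1 +/+) numbered 3 under normal conditions and 3 after ischemia, and the Drp1 KO mice (labelled Drp1 flox/+) numbered 4 under normal conditions and 4 after ischemia. Ischemia was brought about by bleeding from the femoral artery, and the labels of the ischemic libraries carry the mark 2 h, whereas the paper's text names a longer period for these groups, so the duration is uncertain. Drp1, encoded by Dnm1l, is the dynamin-like GTPase that divides mitochondria. The methods describe the KO as a frameshift made with CRISPR/Cas9, kept heterozygous because homozygous loss is lethal, and no Cre driver is stated. How this allele relates to the flox/+ of the labels is not stated in the sources used here.

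Collagens are the main structural proteins of the extracellular matrix, each built from 3 α chains wound into a triple helix. In the artery wall, fibrils of types I, III and V give the adventitia and media their tensile strength, whereas type IV chains form the network of the basement membrane around smooth muscle cells and beneath the endothelium. Type VI forms beaded filaments close to cells, types XV and XVIII are basement membrane proteoglycans, and the FACIT collagens sit on the surface of fibrils. The chains are hydroxylated and folded in the endoplasmic reticulum, trimmed outside the cell and joined by lysyl oxidases.

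The 6 type IV genes lie as 3 head-to-head pairs, in which both genes start near each other and run in opposite directions. These pairs are shown because their members moved together from mouse to mouse, as described further on. In GENCODE M21 (GRCm38, the same assembly as the submitters' mm10), Col4a1 on the minus strand and Col4a2 on the plus strand of chromosome 8 overlap at their first exons by 22 bases. Col4a4 (minus) and Col4a3 (plus) on chromosome 1 are separated by 71 bases. Col4a6 (minus) and Col4a5 (plus) on chromosome X are separated by 1308 bases. The sequences below are RefSeq promoter windows of build GRCm38.p6, read on the minus strand, with the letters GGGCGG (a GC box, on either strand) in capitals.
Col4a1/Col4a2 overlap, exonic in both genes, chr8:11312805-11312826: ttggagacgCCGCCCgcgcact
Col4a4/Col4a3 gap, intergenic, chr1:82586850-82586920: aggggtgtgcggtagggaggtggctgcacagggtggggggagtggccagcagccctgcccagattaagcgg
Col4a6 upstream, outside annotated exons, chrX:141474077-141474226: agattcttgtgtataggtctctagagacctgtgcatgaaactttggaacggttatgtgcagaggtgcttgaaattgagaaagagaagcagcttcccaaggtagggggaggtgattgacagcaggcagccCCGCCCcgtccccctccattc
A promoter window (250 bases before to 50 bases after the start) was at hand for 35 of the 44 collagen genes, in 38 windows. GGGCGG, searched on both strands, was in 23 of these 38 windows (60.5%) and in 35.7% of all 32851 windows. CCAAT, also searched on both strands, was in 13 (34.2%) against 37.4%, and TATAAA was in 5 (13.2%) against 13.6%. None of the 3 motifs contains another, and a match describes the letters only.

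Total counts ranged from 25612646 to 40255851 per mouse, so that 3 counts corresponded to 0.0745 to 0.117 CPM (counts scaled to the library total). Dnm1l, the targeted gene, stood at 63.8 to 90.9 CPM in normal WT, 54.8 to 62.2 CPM in normal KO, 63.1 to 81.0 CPM in ischemic WT and 60.0 to 76.0 CPM in ischemic KO mice. Its log2 fold change in KO against WT mice over both conditions was −0.22 (SE 0.12, FDR = 0.67 by edgeR's quasi-likelihood test), a difference that did not pass the limits. The libraries differed in tissue composition. The summed level of the 5 smooth muscle markers ran from 6971 to 35650 CPM, that of the 5 fibroblast markers from 245 to 2602 CPM and that of the 4 brown adipocyte markers from 150 to 6505 CPM. Markers of pancreatic acinar cells summed to at most 3.50 CPM and those of lymphocytes to at most 8.96 CPM. Normal WT mouse 2 had the lowest smooth muscle sum and the highest brown adipocyte sum, and normal KO mice 2 and 3 had the highest fibroblast sums, at 2602 and 1968 CPM. Results on collagens are therefore also given without these 3 libraries, which were chosen after seeing the data. Normal WT mouse 2 also had the lowest collagen share of its group (0.552% of counts). Normal KO mice 2 and 3 had the highest of theirs (2.08% and 1.57%). Leaving them out thus lowers collagen in normal KO relative to normal WT mice by the choice itself. Normal WT mice 1 and 3 and normal KO mice 1 and 4 remain, although normal KO mouse 4 had a brown adipocyte sum of 6047 CPM. In whole tissue, fewer cells of a type and less RNA per cell cannot be told apart. Of the smooth muscle markers, Tagln was low, at 0.675 to 5.78 CPM, beside 2726 to 13670 CPM for Myh11. Among the collagens, 13 of 44 shared any exon base with another gene, and the largest share was 6.07% of exon bases (Col9a3 with Tcfl5).

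Collagen genes took 0.552% to 2.82% of all counts in a mouse. The share was 1.28% ± 0.65 (SD, n = 3) in normal WT, 1.34% ± 0.64 (n = 4) in normal KO, 2.10% ± 0.78 (n = 3) in ischemic WT and 1.42% ± 0.24 (n = 4) in ischemic KO mice, and the ranges of the 4 groups overlapped. Of all collagen counts, 42.8% came from Col1a1, Col1a2 and Col3a1, and 81.9% came from the 8 genes with the highest level per coding length. A mean of at least 100 CPM was reached by 15 genes, a mean from 10 to under 100 CPM by 9, from 1 to under 10 CPM by 7 and under 1 CPM by 13, of which 7 were still tested.

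Levels between genes were compared as CPM per kilobase of coding sequence, averaged over the 14 mice. Highest were the interstitial fibril chains Col1a2 (525 CPM per kb), Col3a1 (492.5 CPM per kb) and Col1a1 (475 CPM per kb). Col18a1, the proteoglycan whose end fragment is endostatin, followed with 332 CPM per kb. The common type IV chains Col4a1 (306 CPM per kb) and Col4a2 (236 CPM per kb) and the type VI chains Col6a2 (252 CPM per kb) and Col6a1 (212 CPM per kb) completed the 8 highest. Within type IV, Col4a5 (59.6 CPM per kb) and Col4a6 (46.4 CPM per kb), which occur in smooth muscle basement membranes, stood above Col4a4 (4.75 CPM per kb) and Col4a3 (3.39 CPM per kb), the chains best known from the kidney glomerulus. Of type V, which starts fibrils, Col5a1 had 109 CPM per kb and Col5a2 74.9 CPM per kb, and Col5a3 had 4.23 CPM per kb. The third chain of type VI, Col6a3, had 39.7 CPM per kb, whereas Col6a4, Col6a5 and Col6a6 had 2.31 CPM per kb or less. Among the FACIT collagens, Col14a1 was highest with 48.7 CPM per kb and the other 8 were at 4.05 CPM per kb or less. The type VIII chains Col8a1 (4.71 CPM per kb) and Col8a2 (2.09 CPM per kb), the transmembrane collagen Col23a1 (5.85 CPM per kb) and the cartilage chains Col11a1, Col11a2, Col9a1 and Col2a1 (0.0995 CPM per kb or less) were low.

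The fibril-forming genes varied widely between mice of the same group. In WT mice, Col1a1 stood at 2417, 718 and 1558 CPM under normal conditions and at 884, 4231 and 4994 CPM after ischemia. In KO mice it stood at 957, 4545, 2537 and 540 CPM under normal conditions and at 1718, 1195, 1374 and 1339 CPM after ischemia. Ischemic WT mice 2 and 3 and normal KO mouse 2 were high, and no pair of groups was separate. Col1a2, the partner chain of type I, was at 2484, 757 and 2092 CPM in normal WT, 1300, 3902, 2491 and 798 CPM in normal KO, 1222, 3508 and 4573 CPM in ischemic WT and 2247, 1679, 1637 and 1567 CPM in ischemic KO mice. Col3a1, which forms the thinner fibrils of distensible tissue, was at 2614, 871 and 2286 CPM in normal WT, 994, 3633, 1983 and 667 CPM in normal KO, 966, 4042 and 4728 CPM in ischemic WT and 2338, 1825, 1572 and 1764 CPM in ischemic KO mice. In normal WT, normal KO and ischemic WT mice, the order of the mice was the same in both of these genes as in Col1a1. In ischemic KO mice, mouse 1 was highest in all of them and the order of the others differed.

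**Figure D1:**
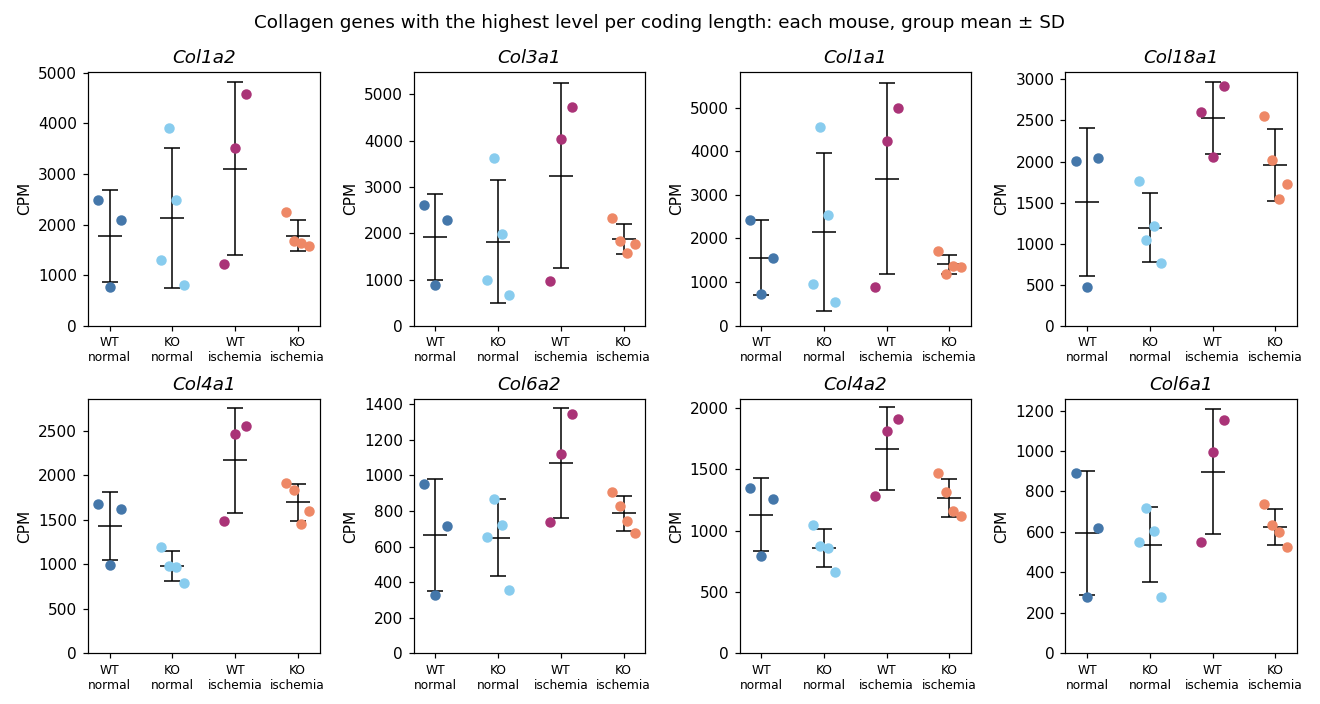
Level of the 8 collagen genes with the highest level per coding length in each of the 14 mice, in CPM scaled by TMM (linear axes from 0); points are mice, bars are the group mean ± SD. Ischemic KO mice lie close together for Col1a1 (1195 to 1718 CPM) and the other 3 groups spread widely, while all 4 ischemic KO mice lie above all 4 normal KO mice for Col4a1 and Col4a2.

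The type VI chains Col6a1 and Col6a2 had their highest means in ischemic WT mice, with overlapping groups. Col6a1, a chain of the filaments that anchor cells to fibrils, was at 890, 276 and 617 CPM in normal WT, 547, 716, 606 and 279 CPM in normal KO, 551, 994 and 1152 CPM in ischemic WT and 736, 635, 599 and 526.3 CPM in ischemic KO mice. Col6a2, its partner, was at 949, 328 and 718 CPM in normal WT, 652, 866, 723 and 354 CPM in normal KO, 737, 1121 and 1348 CPM in ischemic WT and 905, 828, 742 and 678 CPM in ischemic KO mice. Normal WT mouse 2 and normal KO mouse 4 were lowest in both. Col18a1 was at 2008, 470 and 2045 CPM in normal WT, 1767, 1039, 1213 and 765 CPM in normal KO, 2600, 2054 and 2926 CPM in ischemic WT and 2553, 2018, 1541 and 1729 CPM in ischemic KO mice. Its ischemic WT mice all lay above the normal WT mice, by a margin of 2054 against 2045 CPM.

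Ischemia was first compared with normal conditions over both genotypes. None of the 38 collagen genes passed an FDR under 0.05 with a fold change over 1.5 in edgeR's quasi-likelihood test, where 0.927% of all 17693 tested genes did. Unadjusted p values were under 0.05 in 5 of 38, against 18.1% of all genes: Col4a1, Col15a1, Col4a2 and Col18a1 with a higher mean after ischemia and Col28a1 with a lower one. DESeq2 called 3 of them (Col4a1 with FDR = 0.0065, Col15a1 with FDR = 0.023 and Col28a1 with FDR = 0.039), where it called 4.95% of all genes. The median log2 fold change over the 38 genes was 0.19, beside −0.05 over all genes tested. By leaving out each mouse in turn, the number at an unadjusted p under 0.05 ranged from 4 (without normal KO mouse 2 or 4, ischemic WT mouse 3 or ischemic KO mouse 1) to 11 (without normal WT mouse 1). It was 9 without the 3 libraries named above, where 11.4% of all genes were at that level.

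Col4a1, the α1 chain of the common basement membrane network, had the smallest p. In WT mice it stood at 1673, 989 and 1622 CPM under normal conditions and at 1484, 2459 and 2550 CPM after ischemia. In KO mice it stood at 1191, 974, 968 and 786 CPM under normal conditions and at 1907, 1828, 1449 and 1591 CPM after ischemia. All ischemic KO mice were above all normal KO mice, whereas 1 ischemic WT mouse lay among the normal WT mice. Its log2 fold change was 0.69 (SE 0.19, FDR = 0.0999) over both genotypes, 0.60 (SE 0.28, FDR = 0.53) in WT and 0.79 (SE 0.25, FDR = 0.20) in KO mice. DESeq2 called the change in KO mice as well (FDR = 0.030). Col4a2, which pairs with it in the same trimer, was at 1344, 789 and 1254 CPM in normal WT, 1285, 1811 and 1912 CPM in ischemic WT, 1043, 875, 856 and 662 CPM in normal KO and 1466, 1311, 1160 and 1121 CPM in ischemic KO mice. The KO groups were again separate, and the log2 fold change over both genotypes was 0.56 (SE 0.18, FDR = 0.14), with 0.56 (SE 0.27, FDR = 0.53) in WT and 0.56 (SE 0.23, FDR = 0.32) in KO mice.

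Col15a1, a basement membrane proteoglycan of vessels and muscle, was at 261, 169 and 242 CPM in normal WT, 260, 472 and 577 CPM in ischemic WT, 272, 443, 373 and 206 CPM in normal KO and 593, 424, 499 and 379 CPM in ischemic KO mice. Ischemic and normal mice overlapped in both genotypes, and the log2 fold change over both genotypes was 0.76 (SE 0.22, FDR = 0.12). Col28a1, a minor collagen known from peripheral nerve, went the other way with a log2 fold change of −1.09 (SE 0.35, FDR = 0.15). It stood at 9.65, 5.40 and 3.85 CPM in normal WT, 1.49, 3.27 and 3.48 CPM in ischemic WT, 4.46, 1.74, 3.66 and 1.35 CPM in normal KO and 1.78, 1.57, 1.46 and 0.882 CPM in ischemic KO mice. For Col18a1 the log2 fold change was 0.73 (SE 0.30, FDR = 0.24).

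The summed level of the smooth muscle markers was also higher after ischemia. It was 6971 to 24520 CPM in normal WT, 10170 to 24180 CPM in normal KO, 19600 to 35650 CPM in ischemic WT and 18330 to 29770 CPM in ischemic KO mice. Of the 5 markers, Acta2 (smooth muscle actin) had a log2 fold change of 0.78 (SE 0.33, FDR = 0.24), Cnn1 one of 0.59 (SE 0.29, FDR = 0.31) and Myh11 one of 0.53 (SE 0.29, FDR = 0.35) with ischemia over both genotypes. Tagln (0.32, SE 0.38, FDR = 0.68) and Smtn (0.07, SE 0.24, FDR = 0.89) were lower, and Smtn was at −0.23 within KO mice. None of the 5 passed the limits. The part of these markers in the higher collagen levels was not tested. With the brown adipocyte markers as a covariate, Col4a1 was called with a log2 fold change of 0.68 (FDR = 0.046), where 2.41% of all genes were called. With the fibroblast markers as a covariate its FDR was 0.13, and without the 3 libraries its log2 fold change was 0.59 (FDR = 0.34).

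Within WT mice, ischemia against normal conditions gave 0 calls among the 38 collagen genes with edgeR and with DESeq2, where edgeR called 0.0113% and DESeq2 0.633% of all genes. Unadjusted p values were under 0.05 in 5, against 9.57% of all genes. These were Col15a1 (log2 fold change 0.96, SE 0.34, FDR = 0.51), Col11a2 (2.48, SE 0.98, FDR = 0.51), Col8a2 (1.90, SE 0.78, FDR = 0.51), Col13a1 (−2.18, SE 0.92, FDR = 0.51) and Col28a1 (−1.20, SE 0.53, FDR = 0.52). The value of Col13a1 rested on normal WT mouse 2, without which it was 0.05. Without ischemic WT mouse 3 that of Col11a2 was 1.63 and that of Col8a2 was 1.12, and without normal WT mouse 1 that of Col28a1 was −0.76. The groups did not overlap for 5 of 38 genes (Col10a1, Col18a1, Col22a1, Col27a1 and Col28a1), against 11.0% of all genes. A log2 fold change above 0 was found for 28 of 38 (73.7%), beside 49.4% of all genes, with a median of 0.60 beside −0.01. All 6 type IV genes had values from 0.55 to 0.83. All 5 smooth muscle markers (median 0.56) and all 5 fibroblast markers (median 0.56) had log2 fold changes above 0 as well, and none passed the limits. Their part in the collagen values was not tested. The number at an unadjusted p under 0.05 ranged from 1 (without ischemic WT mouse 3) to 11 (without normal WT mouse 1). It was 2 without the 3 libraries named above, where 3.82% of all genes were at that level. The median was 0.34 without normal WT mouse 2. Col11a2, a chain of cartilage fibrils, was near the floor of 3 counts in several mice, at 0.118, 0.0710 and 0.302 CPM in normal WT and 0.882, 0.136 and 1.74 CPM in ischemic WT mice.

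Within KO mice, 0 of 38 collagen genes were called by edgeR, against 0.294% of all genes, and DESeq2 called 1 (Col4a1), against 3.46% of all genes. An unadjusted p under 0.05 was reached by 4 (Col4a1, Col4a2, Col7a1 and Col23a1), against 13.2% of all genes, and the groups did not overlap for 4 (Col4a1, Col4a2, Col4a5 and Col7a1), against 11.1%. The median log2 fold change was −0.29 beside −0.05 over all genes, and 24 of 38 (63.2%) were below 0, beside 54.1% of all genes. All 5 fibroblast markers were below 0 too, with a median of −1.35 and 3 of 5 at an unadjusted p under 0.05. With them as a covariate the median of the collagen genes was 0.27. Fibroblast markers varied with collagen genes within groups (r = 0.846 for Pdgfra with Col1a1), so this covariate can remove collagen changes as well. The part of the fibroblast markers was not tested. The type IV genes were split here: Col4a1, Col4a2, Col4a5 (0.61, SE 0.40) and Col4a6 (0.35, SE 0.35) had log2 fold changes above 0, whereas Col4a3 (−0.64, SE 0.47) and Col4a4 (−0.90, SE 0.43) had them below 0. Col7a1, which forms anchoring fibrils, was at 5.08, 2.70, 3.39 and 3.16 CPM in normal KO and at 1.61, 2.18, 1.32 and 1.52 CPM in ischemic KO mice. These groups were separate, with a log2 fold change of −1.11 (SE 0.44, FDR = 0.30). In WT mice the same gene was at 4.46, 1.74 and 1.21 CPM before and 3.16, 5.07 and 1.99 CPM after ischemia. The number at an unadjusted p under 0.05 ranged from 2 (without normal KO mouse 3 or ischemic KO mouse 1 or 2) to 7 (without normal KO mouse 4). Without the 3 libraries named above it was 7, where 10.9% of all genes were at that level. The median then became 0.51, a direction that the choice of these libraries favours. It was 0.09 without normal KO mouse 2.

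**Figure D2:**
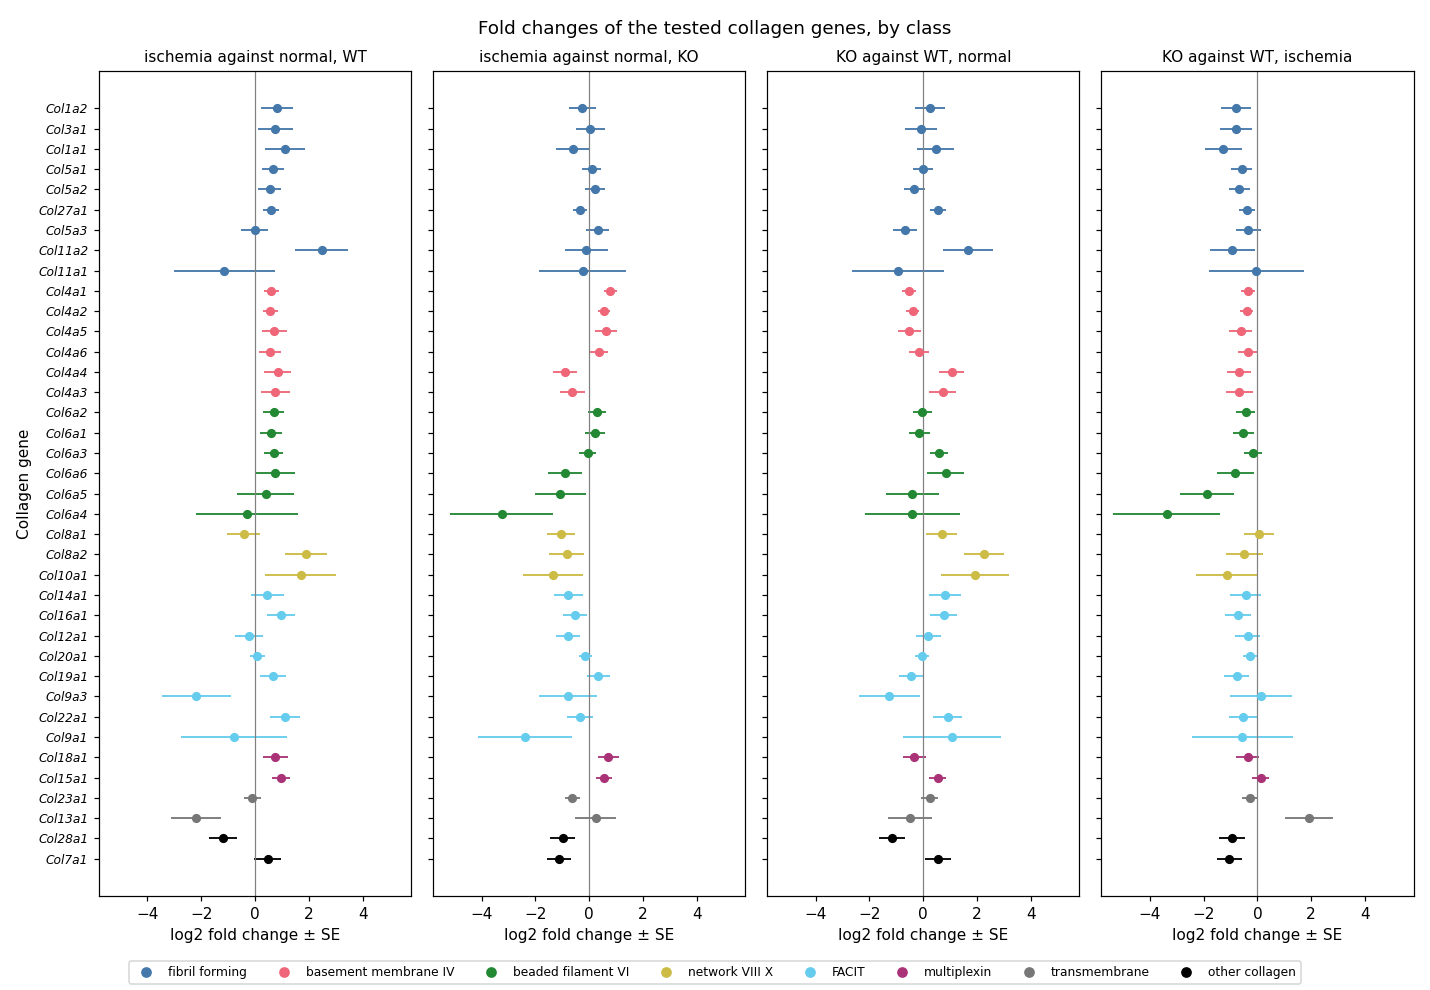
Log2 fold change ± SE from edgeR for the 38 tested collagen genes (rows, grouped and coloured by class) in 4 comparisons (panels). In ischemic WT mice the 6 type IV genes all lie right of 0, in ischemic KO mice Col4a3 and Col4a4 lie left of it, and in KO against WT mice after ischemia 34 of 38 genes lie left of 0.

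KO mice were then compared with WT mice under normal conditions. Neither edgeR nor DESeq2 called any of the 38 genes, and they called 0.0% and 0.283% of all genes. Unadjusted p values were under 0.05 in 3 (Col8a2, Col28a1 and Col4a4), against 5.25% of all genes, and the median log2 fold change was 0.09 beside −0.02. Col8a2, a chain of the short network collagen of the subendothelium and the cornea, was the only one of 38 whose groups did not overlap, against 4.5% of all genes. It stood at 0.826, 1.70 and 1.66 CPM in normal WT and at 2.03, 12.9, 9.74 and 1.96 CPM in normal KO mice. KO mice 2 and 3, the libraries with high fibroblast markers, were far above the others. The log2 fold change of 2.26 (SE 0.76, FDR = 0.87) was 0.69 without these 2 and normal WT mouse 2, and 0.74 with the fibroblast markers as a covariate. Col4a4 was at 25.4, 9.87 and 12.5 CPM in normal WT and 18.8, 54.4, 41.2 and 17.4 CPM in normal KO mice, with a log2 fold change of 1.05 (SE 0.48, FDR = 0.94) that became −0.0675 without the 3 libraries and 0.40 with the fibroblast covariate. The summed fibroblast markers were 374 to 599 CPM in normal WT and 406 to 2602 CPM in normal KO mice. These markers can vary with collagen genes themselves, and their part in the values of Col8a2 and Col4a4 was not tested. Col28a1 had a log2 fold change of −1.17 (SE 0.49, FDR = 0.93), and of −0.72 without normal WT mouse 1. The number at an unadjusted p under 0.05 ranged from 1 (without normal KO mouse 2) to 8 (without normal WT mouse 2, where 11.4% of all genes were at that level). Without the 3 libraries it was 11, beside 9.34% of all genes, and the median was −0.64, a direction that the choice of these libraries favours.

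After ischemia, most collagen genes had lower means in KO than in WT mice, although none was called by edgeR or DESeq2 (0.0% and 0.181% of all genes). A log2 fold change below 0 was found for 34 of 38 (89.5%), beside 52.8% of all genes, and the median was −0.53 beside −0.03. In the same comparison all 5 smooth muscle markers (median −0.27) and all 5 fibroblast markers (median −0.28) had log2 fold changes below 0, and all 4 brown adipocyte markers had them above 0 (median 2.07). With the brown adipocyte markers as a covariate the median of the collagen genes was −0.31, and with the fibroblast markers it was −0.37. The part of these markers in the collagen values was not tested. The genes below 0 included all 9 tested fibril-forming genes (−1.26 to −0.04), all 6 type IV genes (−0.68 to −0.35) and all 6 type VI genes (−1.88 to −0.16 without Col6a4). These genes are not independent, since many of them moved together between mice. Unadjusted p values were under 0.05 in 2 (Col7a1 and Col13a1), against 6.48% of all genes, and the groups did not overlap for 2 (Col13a1 and Col6a4), against 10.7%. Col6a4 had 0, 0, 1 and 1 counts in the ischemic KO mice and 1, 6 and 12 counts in the ischemic WT mice, and no fold is given for it. Col1a1 had a log2 fold change of −1.26 (SE 0.67, FDR = 0.72), and the 4 KO mice lay between ischemic WT mouse 1 and the other two. The median was −0.31 without ischemic WT mouse 3 and −0.78 without ischemic WT mouse 1. The number at an unadjusted p under 0.05 ranged from 0 (without ischemic KO mouse 3) to 6 (without ischemic WT mouse 1).

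Col13a1, a transmembrane collagen of cell adhesion sites, was the main exception, with a higher mean in ischemic KO mice. It stood at 0.304, 0.748 and 0.304 CPM in ischemic WT and at 1.01, 1.38, 1.26 and 3.19 CPM in ischemic KO mice, with a log2 fold change of 1.92 (SE 0.88, FDR = 0.72). Under normal conditions it was at 0.295, 5.33 and 0.566 CPM in WT and 1.89, 1.07, 1.11 and 1.75 CPM in KO mice, so that normal WT mouse 2 was the highest of all. Ucp1, a brown adipocyte marker, was at 66.3, 776 and 304 CPM in ischemic WT and at 604, 3272, 2640 and 2921 CPM in ischemic KO mice. It was at 3948 CPM in normal WT mouse 2. In normal KO mice it was at 557, 2784, 1149 and 4072 CPM, and the mouse lowest in Ucp1 was highest in Col13a1. All 4 brown adipocyte markers were detected, with sums of 259 to 1322 CPM in ischemic WT and 931 to 4691 CPM in ischemic KO mice. With these markers as a covariate, the log2 fold change of Col13a1 was 0.60 (FDR = 0.94). The part of these markers in the difference was not tested. Col7a1 had a log2 fold change of −1.04 (SE 0.47, FDR = 0.72) in KO against WT mice after ischemia and of −0.59 without ischemic WT mouse 2, and for Col28a1 it was −0.95 (SE 0.49, FDR = 0.72).

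Over both conditions, KO against WT mice gave 0 calls among 38 with edgeR and DESeq2 (0.0% and 0.514% of all genes), with an unadjusted p under 0.05 for 3, against 7.77% of all genes. These were Col28a1 (log2 fold change −1.06, SE 0.35, FDR = 0.58), Col4a1 (−0.45, SE 0.19, FDR = 0.62) and Col4a2 (−0.40, SE 0.17, FDR = 0.63), which all had lower means in KO mice. The number ranged from 1 (without normal WT mouse 1 or 3, ischemic WT mouse 2 or ischemic KO mouse 3) to 10 (without normal WT mouse 2). In the latter setting 18.5% of all genes were at that level. Leaving out the 3 libraries favours lower values in KO mice by their choice. Without them the number was 18 of 38, where 16.5% of all genes were at that level, and the median moved from −0.24 to −0.54. Col1a1 (−1.34, FDR = 0.19) and Col3a1 (−1.18, FDR = 0.20) were then among the smallest p values, and again no collagen gene was called.

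The interaction asked whether the change with ischemia differed between KO and WT mice. No collagen gene was called by edgeR or DESeq2 (0.0% and 0.0735% of all genes), and 5 of 38 had an unadjusted p under 0.05, against 4.32% of all genes. The difference was below 0 for 32 of 38 (84.2%), beside 51.1% of all genes, with a median of −0.60 beside −0.02. Col8a2 (−2.74, SE 1.01, FDR = 0.95), Col4a4 (−1.73, SE 0.66, FDR = 0.95) and Col7a1 (−1.57, SE 0.67, FDR = 0.95) had the smallest p values on the log2 scale, followed by Col27a1 and Col16a1. The number ranged from 1 (without normal WT mouse 2 or ischemic WT mouse 3) to 10 (without ischemic WT mouse 1). Without the 3 libraries it was 1, beside 3.58% of all genes. The median was then 0.18, on the other side of 0, a direction that the choice of these libraries favours. With the fibroblast markers as a covariate the number was 1, beside 3.86% of all genes. The median was then 0.0023, and the value of Col8a2 was −0.69. Since fibroblast markers varied with collagen genes, this covariate can remove collagen changes as well, and their part was not tested.

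Some members varied together across mice. For 10 pairs of collagen genes, log2 CPM (prior count 2) were correlated over the 14 mice after the mean of each group was removed, with a two-sided exact permutation test over all 20736 orders within groups. The pair Col6a1 and Col6a2 was closest (r = 0.996, adjusted p = 0.00048 by the exact permutation test; rho = 0.974, adjusted p = 0.00036), and r was 0.991 without the 2 mice farthest from the median. The fibril chains Col1a1 and Col1a2 had r = 0.980 (rho = 0.969, both with an adjusted p of 0.00056 by exact permutation), with 0.966 without 2 mice. For Col1a1 and Col3a1, r was 0.984 (adjusted p = 0.00056, exact permutation) and rho 0.965 (adjusted p = 0.0009), with 0.974 without 2 mice. Col4a1 and Col4a2 had r = 0.971 (adjusted p = 0.00056, exact permutation) and rho = 0.943 (adjusted p = 0.00036), with 0.958 without 2 mice. Col5a1 with Col5a2 (r = 0.940), Col3a1 with Col15a1 (r = 0.943), Col3a1 with its neighbour on chromosome 1, Col5a2 (r = 0.862), and Col6a1 with Col6a3 (r = 0.804) also passed, with rho of 0.886, 0.917, 0.886 and 0.780, adjusted p values of 0.00056 to 0.0017 for r and 0.00036 to 0.005 for rho by exact permutation, and r of 0.860, 0.890, 0.872 and 0.768 without 2 mice. The chains of different networks, Col1a1 and Col4a1, were looser, with r = 0.655 (adjusted p = 0.048, exact permutation) and rho = 0.560 (adjusted p = 0.12). This relation rested on 2 mice, ischemic WT mouse 1 and normal KO mouse 4, without which r was 0.403. Col8a1 and Col8a2 did not pass, with r = 0.580 (adjusted p = 0.079, exact permutation) and rho = 0.547 (adjusted p = 0.093), and 0.501 without 2 mice. Outside the 10 pairs, r was −0.892 for Col13a1 with Col4a6 and −0.0016 for Col7a1 with Col1a1, so not all members varied together. No r over pairs of all genes is given beside these values. Within the 13 libraries of lane 8, r over the 10 pairs ranged from 0.641 to 0.996, and lane 1 held 1 library only.

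**Figure D3:**
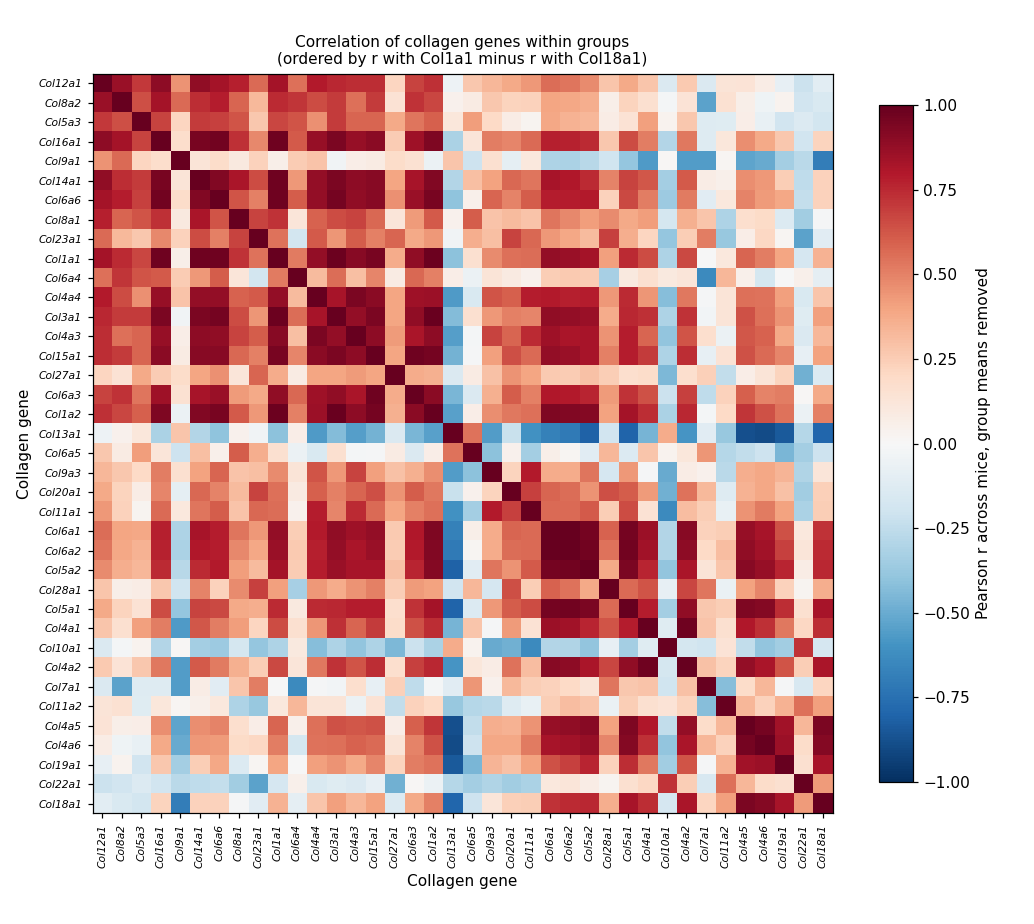
Pearson r across the 14 mice, group means removed, for each pair of the 38 tested collagen genes, ordered by r with Col1a1 minus r with Col18a1 (colour from −1 in blue to 1 in red). Towards the upper left, red cells join Col1a1, Col1a2, Col3a1, Col14a1, Col16a1 and Col6a6 with Col4a3 and Col4a4, a block at the lower right holds Col18a1, Col4a5, Col4a6 and Col19a1, and Col13a1 is blue against the latter.

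As a description, 13 other genes had r over 0.8 with Col1a1, and 5 other genes had r over 0.8 with Col18a1, with 0 genes in both sets. Those with Col1a1 were the fibril chains Col1a2, Col3a1 and Col5a2, the FACIT collagens Col12a1, Col14a1 and Col16a1, Col15a1, the type VI chains Col6a1, Col6a2, Col6a3 and Col6a6, and the pair Col4a3 and Col4a4. Those with Col18a1 were Col4a2, Col4a5, Col4a6, Col5a1 and the FACIT collagen Col19a1. The sets are separate only at this cut, as several genes were close to both Col1a1 and Col18a1. These r were 0.876 and 0.720 for Col6a1, 0.862 and 0.748 for Col6a2, 0.836 and 0.752 for Col5a2, and 0.748 and 0.821 for Col5a1. All of these values come from the same 14 libraries and share their depth and composition.

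To describe these sets, 13 further pairs were correlated in the same way, chosen after the values were seen and adjusted among themselves. The other head-to-head pairs were close, with r = 0.942 (adjusted p = 0.0025 by exact permutation) and rho = 0.925 (adjusted p = 0.0029) for Col4a3 and Col4a4 and r = 0.961 (adjusted p = 0.0025) and rho = 0.947 (adjusted p = 0.0029) for Col4a5 and Col4a6. Without 2 mice, r was 0.943 and 0.900. Across pairs, Col4a1 and Col4a5 had r = 0.798 (adjusted p = 0.0042, exact permutation) and rho = 0.793 (adjusted p = 0.0029), with 0.761 without 2 mice. By contrast, Col4a1 and Col4a3 had r = 0.585 (adjusted p = 0.14, exact permutation) and rho = 0.512 (adjusted p = 0.19), with 0.248 without 2 mice, and Col4a3 and Col4a5 had r = 0.618 (adjusted p = 0.085) and rho = 0.556 (adjusted p = 0.12), with 0.488 without 2 mice. Whether r differed between the pairs was not tested.

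**Figure D4:**
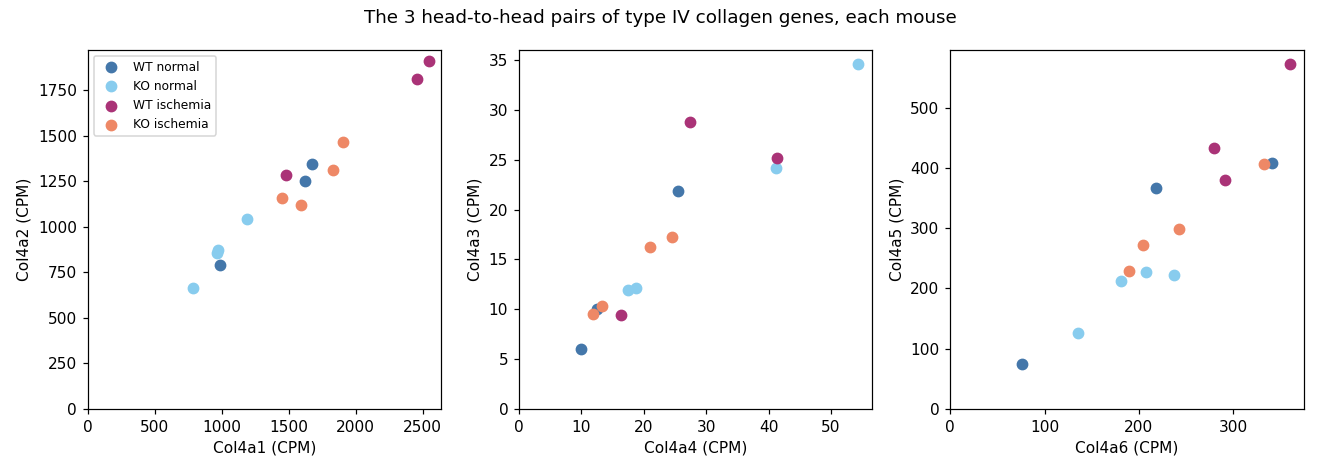
Levels of the 3 head-to-head pairs of type IV collagen genes in each of the 14 mice, in CPM scaled by TMM on linear axes, coloured by group. The points of each pair lie close to a line, and the highest mouse differs between panels: an ischemic WT mouse for Col4a1/Col4a2 and Col4a6/Col4a5 and a normal KO mouse for Col4a4/Col4a3.

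Pdgfra, a receptor that marks fibroblasts, was close to Col1a1, with r = 0.846 (adjusted p = 0.0098 by exact permutation) and rho = 0.829 (adjusted p = 0.010), and to Col4a3, with r = 0.802 (adjusted p = 0.0098) and rho = 0.802 (adjusted p = 0.0065). Without 2 mice these were 0.798 and 0.819. Col18a1 had r = 0.087 (adjusted p = 0.75, exact permutation) and rho = 0.042 (adjusted p = 0.90) with Pdgfra, and 0.031 without 2 mice. Myh11, the myosin heavy chain of smooth muscle, gave the opposite picture. With Col18a1 it had r = 0.941 (adjusted p = 0.0025, exact permutation) and rho = 0.908 (adjusted p = 0.0045), with 0.882 without 2 mice, and with Col4a5 it had r = 0.833 (adjusted p = 0.036) and rho = 0.750 (adjusted p = 0.037), with 0.686 without 2 mice. With Col1a1 it had r = 0.134 (adjusted p = 0.74, exact permutation) and rho = 0.073 (adjusted p = 0.90), with 0.165 without 2 mice. Ucp1, the uncoupling protein of brown fat, had r = −0.778 (adjusted p = 0.037, exact permutation) and rho = −0.706 (adjusted p = 0.037) with Col18a1, with −0.833 without 2 mice. Col13a1 had r = 0.739 (adjusted p = 0.089, exact permutation) and rho = 0.670 (adjusted p = 0.054) with Ucp1, which did not pass, with 0.632 without 2 mice. Within lane 8, the r of these 13 pairs ranged from −0.868 to 0.975.

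**Figure D5:**
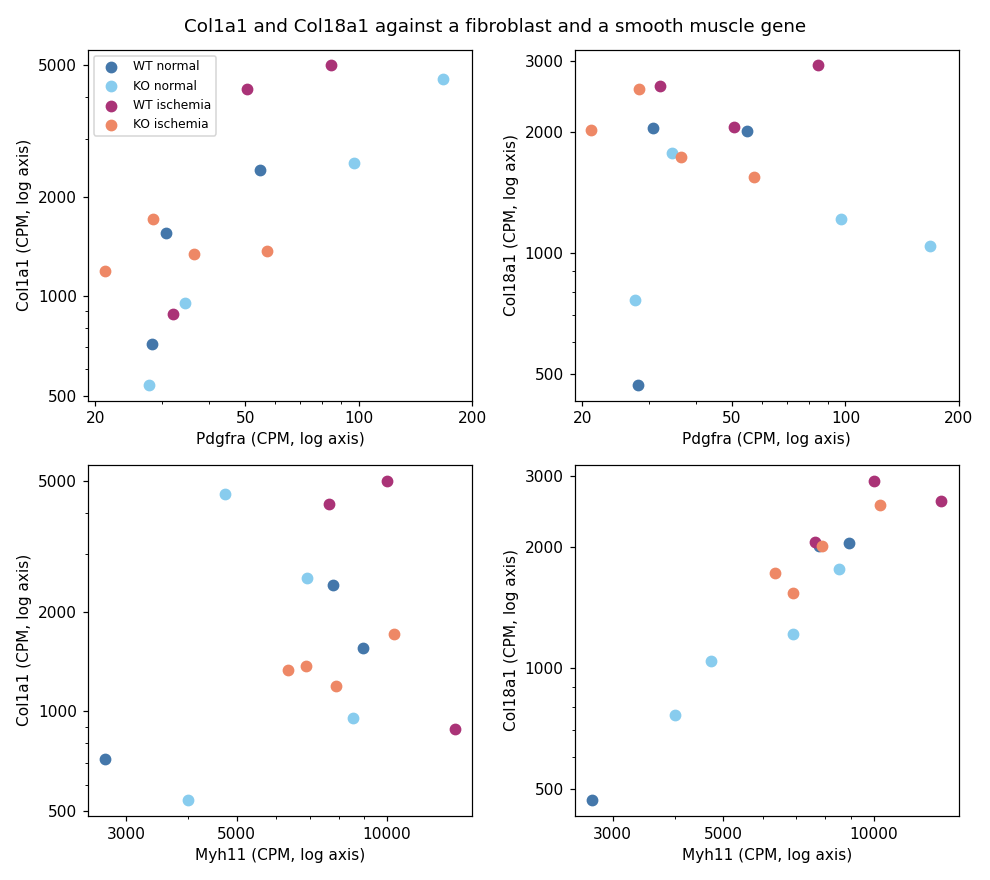
Level of Col1a1 and Col18a1 (CPM, log axes) against Pdgfra, a fibroblast gene, and Myh11, a smooth muscle gene, in each of the 14 mice, coloured by group. Col1a1 rises with Pdgfra (r = 0.846 within groups) but not with Myh11 (r = 0.134), and Col18a1 rises with Myh11 (r = 0.941) but not with Pdgfra (r = 0.087).

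Ratios within a mouse set collagen chains side by side, per coding length. Col4a1 stood at 1.27, 1.28 and 1.32 times Col4a2 in normal WT, 1.17, 1.14, 1.16 and 1.21 times in normal KO, 1.18, 1.39 and 1.36 times in ischemic WT and 1.33, 1.43, 1.28 and 1.45 times in ischemic KO mice. The normal KO mice lay below the normal WT mice and below the ischemic KO mice with no overlap (p = 0.029 for each by a two-sided exact permutation test, adjusted p = 0.17 over the 12 ratio tests run). Col1a1 to Col1a2 had means of 0.839 ± 0.118 (SD, n = 3) in normal WT, 0.849 ± 0.219 (n = 4) in normal KO, 0.951 ± 0.238 (n = 3) in ischemic WT and 0.749 ± 0.063 (n = 4) in ischemic KO mice. None of the 4 comparisons of this ratio passed (adjusted p of 0.34 to 0.97, exact permutation test). The ratio tests had only 20 to 70 ways to split the mice, so even groups without overlap did not pass. They cannot show that a ratio was unchanged. Col3a1 to Col1a1 had means of 1.25 ± 0.19 (n = 3) in normal WT, 0.957 ± 0.215 (n = 4) in normal KO, 0.991 ± 0.081 (n = 3) in ischemic WT and 1.33 ± 0.16 (n = 4) in ischemic KO mice, with adjusted p values of 0.17 to 0.34 by the exact permutation test.

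The genes that make, trim, join and bind collagen were followed as 3 lists, all of whose 47 genes were tested. None was called in any of the 7 comparisons. With ischemia over both genotypes, 6 of the 19 genes of collagen synthesis had an unadjusted p under 0.05, all with higher means, beside the 18.1% of all genes given above. A log2 fold change above 0 was found for 17 of 19 (89.5%), beside 45.8% of all genes, with a median of 0.35. The 18 genes of processing and cross-linking had 3 at that level (2 higher, 1 lower) with a median of 0.09, and the 10 collagen receptors had 1 with a median of 0.02. In KO against WT mice over both conditions, the counts were 0 of 19, 1 of 18 and 2 of 10, beside 7.77% of all genes. In KO against WT mice after ischemia, 17 of the 18 genes of processing and cross-linking (94.4%) and 9 of the 10 receptors (90.0%) had a log2 fold change below 0, while the synthesis genes had 12 of 19 (63.2%), beside 52.8% of all genes. Dcn and Lum are in the list of processing and among the fibroblast markers.

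P3h2, a prolyl 3-hydroxylase of basement membrane collagens, was at 37.3, 13.9 and 39.7 CPM in normal WT, 56.7, 31.8 and 47.9 CPM in ischemic WT, 34.4, 19.9, 30.6 and 18.7 CPM in normal KO and 54.6, 48.6, 57.5 and 37.2 CPM in ischemic KO mice. The KO groups did not overlap, and the log2 fold change with ischemia over both genotypes was 0.76 (SE 0.24, FDR = 0.14). P4ha2, a subunit of prolyl 4-hydroxylase, had 0.59 (SE 0.23, FDR = 0.22), with 15.8 to 53.2 CPM in the normal and 44.1 to 67.5 CPM in the ischemic mice. Lair1, an inhibitory collagen receptor of leukocytes, had a log2 fold change of −2.66 (SE 0.77, FDR = 0.115) with ischemia and 2.07 (SE 0.77, FDR = 0.60) in KO against WT mice, at 0 to 9.45 CPM. Macrophage markers summed to 48.0 to 220 CPM in normal and 20.1 to 105 CPM in ischemic mice, and their part was not tested.

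Lox, the lysyl oxidase that starts cross-linking of collagen and elastin, had the smallest p of the 3 lists between genotypes. It was at 536, 33.0 and 405 CPM in normal WT, 56.7, 108, 75.0 and 48.2 CPM in normal KO, 301, 457 and 743 CPM in ischemic WT and 279, 251, 150 and 194 CPM in ischemic KO mice. The ischemic KO mice all lay below the ischemic WT mice, and normal WT mouse 2 lay below all normal KO mice. The log2 fold change in KO against WT mice over both conditions was −1.68 (SE 0.44, FDR = 0.53) and that with ischemia was 1.11 (SE 0.45, FDR = 0.22). Itga1, the α1 chain of a collagen-binding integrin of smooth muscle, had −0.32 (SE 0.14, FDR = 0.63) in KO against WT mice, with 76.0 to 107 CPM in KO and 90.3 to 155 CPM in WT mice.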

How the data were processed

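Bulk RNA-seq libraries of the SMA of 14 mice were used. The authors deposited 1 table of read counts per gene symbol and mouse, as whole numbers without normalization. HISAT2 2.0.4 and mm10 come from the submitters' processing notes. The counter, annotation and strand setting are not given in the sources used here. Columns were matched to mice by title, 0 columns were left unused, and the numbers of mice follow the replicate numbers of the labels. The lowest chi-square per degree of freedom between the counts of 2 mice of a group was 59.1, so all 14 were kept as separate samples. The labels tie each library to 1 mouse.

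The deposited counts of all 14 mice were fitted by edgeR 4.0.16, run under R 4.3.3 with limma 3.58.1, after filterByExpr by the 4 groups (17693 genes) with TMM scaling, and tested by quasi-likelihood with Benjamini-Hochberg adjustment over all genes. A gene was called at an FDR under 0.05 with a fold change over 1.5. The SE is the log2 fold change divided by the root of the F statistic. The common biological coefficient of variation was 0.52, and at these depths variation among animals sets the precision. On simulated counts for ischemia against normal conditions over both genotypes (17693 genes), edgeR called 15 of 50 tested genes changed 2-fold, 35 of 49 changed 4-fold and 79 of 100 changed 8-fold with 5 false calls, and DESeq2 1.42.0 called 22, 37 and 90 of these with 29 false calls. Further settings were other scalings and filters, DESeq2, the replicate number as a block, only the groups compared, and each mouse left out.

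Coordinates and coding lengths (the longest coding sequence of a gene) are from GENCODE M21. The named genes are the 8 collagens with the highest level per coding length, the 3 with the smallest p in each of 7 comparisons and, for the pathway lists, the 3 genes with the smallest p in the pooled comparisons of condition and of genotype. Other names were chosen after their values were seen. The members and lists were chosen with earlier results of these data known. Same-numbered mice of different groups are different animals, so the numbers were not used to pair the samples. The correlation of their deviations ran from −0.15 to 0.32 over 19 pairs, with 11 over 0.1. Differently numbered mice are not given beside them, so these values cannot decide whether same-numbered libraries share a processing step.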

Additional observations from a re-analysis of the deposited data

Results flagged for a closer look

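In groups of 4 mice, 30 sets of values (15 named collagen genes in both KO groups) were searched for 1 mouse far from the others, and chance flags about 1 in 20 such sets. There were 2. Col1a2 in ischemic KO mouse 1 stood at 2247 CPM, while the other 3 ischemic KO mice lay between 1567 and 1679 CPM. Col13a1 in ischemic KO mouse 4 stood at 3.19 CPM, while the others lay between 1.01 and 1.38 CPM.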

How the results depend on the processing

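Across 7 comparisons, the number of collagen genes called was 0 and stayed 0 under the other scalings, both filters, the replicate block, no limit on the fold change and each mouse left out (0 to 0 in each comparison). It also stayed 0 in the fit of only the groups compared, run for the 4 comparisons of 2 groups. Col11a2 in WT mice gave no value under the filter of 10 counts in every mouse, which it did not pass. With DESeq2 the number called was 1 for ischemia against normal conditions in KO mice and 3 over both genotypes, and it was 1 over both genotypes with the brown adipocyte markers as a covariate. DESeq2 called more genes in all, for example 876 against 164 over both genotypes, and made more false calls on simulated data. The median log2 fold change of the collagen genes ranged, with each mouse left out, from −0.19 to 0.48 (KO against WT, normal), −0.78 to −0.31 (KO against WT, ischemia), 0.34 to 0.99 (ischemia, WT), −0.45 to 0.09 (ischemia, KO), −1.01 to −0.38 (interaction), 0.08 to 0.41 (ischemia, both genotypes) and −0.34 to 0.02 (KO against WT, both conditions). Without the 3 libraries it was −0.64 for KO against WT under normal conditions, 0.51 for ischemia in KO mice and 0.18 for the interaction, and with the fibroblast covariate it was 0.27 for ischemia in KO mice and 0.0023 for the interaction. These 3 settings (the libraries left out and both covariates) were chosen after seeing the data. The libraries left out held the lowest collagen share of the normal WT and the highest of the normal KO mice. The choice of them therefore favours the direction in which these medians moved. The fibroblast covariate can remove collagen changes as well, since its markers varied with collagen genes (r = 0.846 for Pdgfra with Col1a1). The fold change of Col4a4 in KO against WT under normal conditions was reversed without the 3 libraries (−0.0675). Of the 10 planned pairs, 9 had an adjusted p under 0.05, and 8 to 9 did with each mouse left out, 9 with upper-quartile factors and 9 with a prior count of 0.5. The scalings moved the median of all genes by at most 0.02. With the replicate block, Col4a1 over both genotypes had a log2 fold change of 0.71 (FDR = 0.10), the calls over all genes were 156 against 164, and no call among the collagens changed. Depth was 25612646 counts or more per mouse, and 7 tested collagens under 1 CPM rest on few counts.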
